A study of Rattus norvegicus with 42 samples.

Results

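Metabotropic glutamate receptors were represented in the deposited transcript counts of rat hippocampus by *Grm2*, *Grm3*, *Grm4*, *Grm5*, *Grm7* and *Grm8*. These members were taken by gene symbol, and each matched 1 transcript, which gave 6 of the 14304 symbols and 6 of the 15516 transcripts in the table. The animals were male Sprague Dawley rat pups that received 1 intraperitoneal injection on postnatal day 7, and the hippocampus was taken 72 h later for RNA sequencing, with 1 library per animal. The vehicle group (VEH) received saline and contributed 13 animals, the phenobarbital group (PB) received 75 mg/kg and contributed 14, and the levetiracetam group (LEV) received 200 mg/kg and contributed 14. Both drugs are antiseizure medications given to newborns, PB as a positive modulator of GABA-A receptors and LEV as a ligand of the synaptic vesicle protein SV2A. The comparison of each drug with VEH asks which receptor transcripts differed 72 h after a single early exposure, and the comparison of PB with LEV asks whether the drugs differed from each other.

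All pups were wild type and were returned to the dam after the injection, so up to tissue collection the groups model drug exposure of an otherwise untreated immature brain. Every pup was then killed with an overdose of sodium pentobarbital and perfused before the hippocampus was dissected. Animals were bought over 2 orders, and the sample codes have 2 forms. Animals 1 to 6 of each group carry the first form and animals 7 to 14 the second, and this form was used as the batch. The labels do not say which order an animal came from. The first code series thus held 6 animals of each group, and the second held 7 of VEH and 8 of each drug. VEH animal 7 is labelled as excluded and was left out. The paper excluded 1 control sample because its average coverage was far above, and its genomic coverage far below, those of the other samples. VEH animal 1 stood apart from its label. For *Eif2s3y* and *Ddx3*, which lie on the Y chromosome, it had 1 and 0 counts, against 705 to 1028 and 475 to 891 in the 40 animals other than VEH 1 and VEH 7. The excluded VEH 7 had 115 and 204 counts. Values without VEH animal 1 are therefore also given for *Grm3*, for the receptors called in animals 1 to 6 and for some listed signalling genes. Values not marked in this way include it.

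Total estimated counts ranged from 9499492 to 14488134 per VEH animal, from 9586794 to 13140913 per PB animal and from 10112050 to 12482915 per LEV animal. Markers of dentate granule, CA1 and CA3 neurons were present in every group, with mean summed normalized counts of 1889, 10440 and 8488 in VEH, and of these lists *Dsp* alone was not in the table. The 6 choroid plexus markers summed to between 109 and 84260 per animal, so the dissected tissue was not uniform. The 4 red blood cell markers in the table averaged between 9625 and 13350 in the 3 groups of animals 1 to 6 and between 920.5 and 2000 in those of animals 7 to 14. In bulk tissue, fewer cells of a type and less RNA per cell cannot be told apart.

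Metabotropic glutamate receptors are G protein-coupled receptors for the main excitatory transmitter, and they tune synapses rather than carry the fast current. Group I, to which *Grm5* belongs, couples to Gq and phospholipase C, raises intracellular calcium and sits mostly at the edge of the postsynaptic density, and the *Grm5* product is also prominent in immature astrocytes. Group II (*Grm2* and *Grm3*) and group III (*Grm4*, *Grm7* and *Grm8*) couple to Gi and Go proteins, lower cyclic AMP and restrain transmitter release. *Grm2* is mainly neuronal, whereas *Grm3* is expressed by astrocytes as well as neurons.

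All 6 transcripts passed the filter on low counts, and their counts were whole numbers in every animal. The group I transcript *Grm5* (NM_017012, rn6 chr1:151218929-151783393) had normalized counts from 1088 to 2077 in VEH animals, with a median of 1765. In group II, *Grm2* (NM_001105711, chr8:115344999-115358047) lay between 578.4 and 1003 in VEH (median 693.3). *Grm3* (NM_001105712, chr4:21317695-21560491) lay between 488.6 and 719.7 (median 542.6). For each of these 3 receptors, the highest VEH animal stood at less than 2 times the lowest.

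In group III, *Grm4* (NM_022666, chr20:6745682-7094631), a presynaptic receptor, lay between 340.7 and 577 in VEH animals (median 380.3). *Grm7* (NM_031040, chr4:142452616-143367579), which sits in the active zone of the presynaptic terminal, lay between 895.6 and 1128 (median 948.1). *Grm8* (NM_022202, chr4:54474663-55399119) lay between 20.38 and 107.1 (median 78.39) and rested on 19 to 122 counts per animal, so its fold changes were the least precise of the 6. A normalized count here is the count divided by the effective library size and multiplied by the mean effective library size. The lengths of the transcripts were not available for scaling, and levels are therefore compared between animals and not between receptors.

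**Figure D1:**
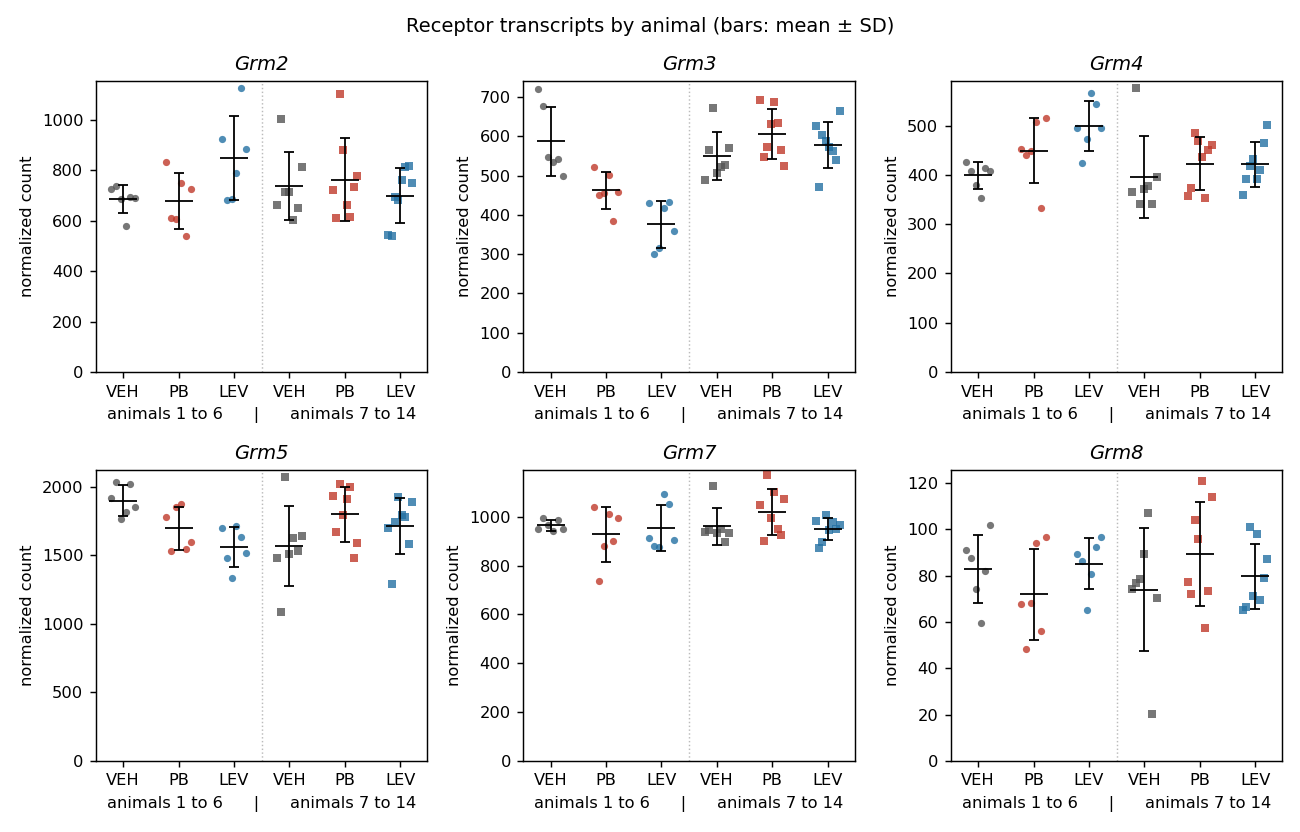
Normalized counts of the 6 receptor transcripts (vertical axes, each from 0) in every analysed animal by treatment, with animals 1 to 6 as circles and animals 7 to 14 as squares. Horizontal lines and bars give mean ± SD. For *Grm3*, the 6 LEV animals of the first code series lie between 300.5 and 431.7, under all 6 VEH animals of that series (500 to 719.7), while the groups of the second series overlap.

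With all 41 animals in 1 model and the code series as a term, no receptor transcript passed between PB and VEH, and the estimates were at most 0.13 on the log2 scale. None of the 6 was differentially expressed, where 5.39% of the 13062 transcripts tested had an adjusted p under 0.05 (quasi-likelihood test of edgeR, adjusted by the Benjamini-Hochberg method over every tested transcript, which also gave each adjusted p that follows). None of the 6 had an unadjusted p under 0.05 either, and with DESeq2 none was called. *Grm4* had the largest change, with a log2 fold change of 0.13 (SE 0.07, 95% interval -0.01 to 0.28, adjusted p = 0.293), and in 10 of 14 PB animals it exceeded the mean of VEH animals with the same code form. The intervals of the 6 receptors lay between -0.26 and 0.36 on the log2 scale. The median log2 fold change of the members was 0.03, and that of all tested transcripts 0.0046.

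*Grm5* averaged 1722 ± 278.6 normalized counts in VEH (SD, n = 13) and 1758 ± 184.5 in PB animals (n = 14), a log2 fold change of 0.03 (95% interval -0.11 to 0.18). *Grm2* was at 727 ± 144.8 after PB and 713.2 ± 105.2 after VEH. *Grm3* was at 544.9 ± 92.58 after PB and 567.3 ± 74.28 after VEH, a log2 fold change of -0.09 (95% interval -0.26 to 0.08, adjusted p = 0.593). For each of these the difference between the means was smaller than the SD within either group. When VEH animal 9 was left out, *Grm4* passed the threshold (log2 fold change 0.20, adjusted p = 0.0469), and it did so in 1 of the 41 fits without 1 animal.

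After LEV, *Grm3* was lower and *Grm4* higher than in VEH before adjustment, and neither passed after it. *Grm3* ranged from 300.5 to 663.7 normalized counts in LEV animals, with a median of 505.1, against 488.6 to 719.7 in VEH. The lowest LEV animals lay under every VEH animal and the highest within the VEH range. The log2 fold change was -0.25 (SE 0.08, 95% interval -0.42 to -0.08, p = 0.00512, adjusted p = 0.642), and -0.20 without VEH animal 1. *Grm4* ranged from 359.1 to 565.9 in LEV animals (median 448.5), with a log2 fold change of 0.20 (SE 0.07, 95% interval 0.05 to 0.34, p = 0.00836, adjusted p = 0.687), and in 11 of 14 LEV animals it exceeded the mean of VEH animals with the same code form.

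No receptor transcript was differentially expressed between LEV and VEH, and 0.00766% of all tested transcripts were (1 of 13062, with 763 at an unadjusted p under 0.05 and 10 called by DESeq2). *Grm5* had a log2 fold change of -0.06 (95% interval -0.20 to 0.08) and *Grm2* one of 0.10 (95% interval -0.09 to 0.29). *Grm7* (-0.02, 95% interval -0.11 to 0.07) had the narrowest interval of the 6 and *Grm8* (0.07, 95% interval -0.22 to 0.36) the widest. Over the members the median log2 fold change was 0.03, with 3 above and 3 below 0, and that over all tested transcripts was 0.00033.

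Between PB and LEV, no receptor transcript passed (background 4.45%), and 0 of 6 had an unadjusted p under 0.05. *Grm3* differed most, at 544.9 ± 92.58 normalized counts after PB and 491.6 ± 118.1 after LEV, a log2 fold change of 0.16 (SE 0.08, 95% interval -0.0084 to 0.32, adjusted p = 0.284). The comparisons of PB and of LEV with VEH share the same VEH animals, so their values are given side by side and not related to each other.

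**Figure D2:**
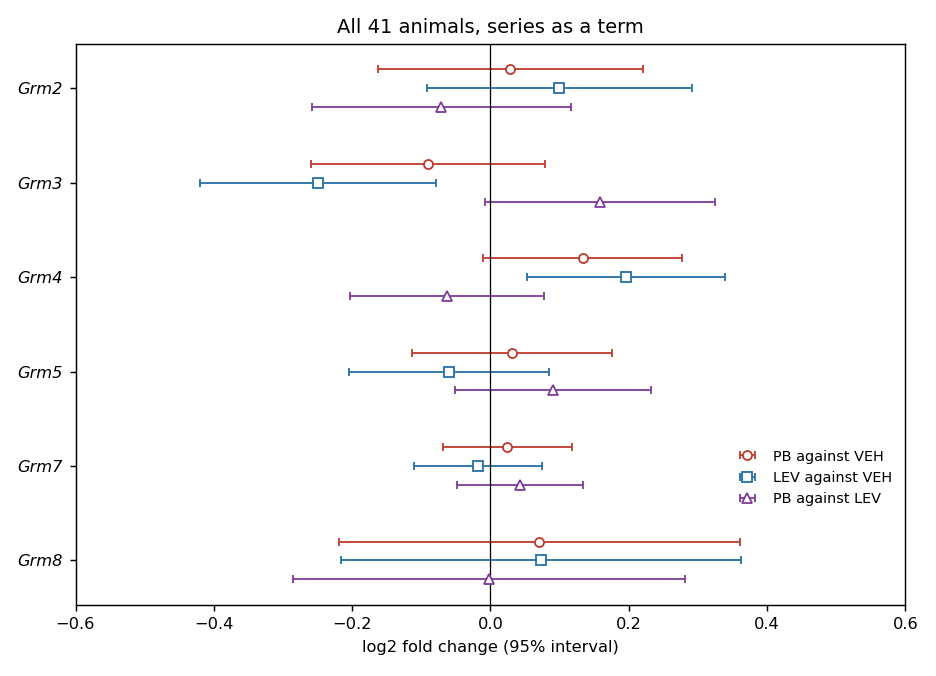
Log2 fold changes of the 6 receptor transcripts (horizontal axis) in the 3 comparisons with all 41 animals, the code series being a term of the model. Points are estimates and bars 95% intervals, and open symbols mark an adjusted p of 0.05 or more, which holds for every point. The intervals of *Grm3* and *Grm4* for LEV against VEH lie clear of 0 before adjustment.

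Among the receptors, *Grm3* differed between the code series. Across the 3 treatments together, *Grm3* was higher in animals 7 to 14 than in animals 1 to 6, with a log2 difference of 0.31 (SE 0.07, 95% interval 0.17 to 0.45, adjusted p = 0.000625). It was the 1 receptor of 6 that passed, where 30.2% of all tested transcripts did. Its fold of 1.24 fell short of the fold limit that the study also required of a differentially expressed transcript. *Grm4* (log2 difference -0.12, adjusted p = 0.118) did not pass, and the other members had adjusted p from 0.425 to 0.969.

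By treatment, the difference of *Grm3* between the code series passed in PB and LEV animals and not in VEH animals. In VEH, *Grm3* had 587 ± 88.69 normalized counts in animals 1 to 6 (SD, n = 6) and 550.4 ± 61.31 in the second series (n = 7), a log2 difference of -0.09 (95% interval -0.28 to 0.09, adjusted p = 0.63, background 7.15%). In PB the means were 462.3 ± 47.5 (n = 6) and 606.9 ± 63.77 (n = 8), a log2 difference of 0.39 (SE 0.09, adjusted p = 0.00332, background 10.9%). In LEV they were 375.9 ± 59 (n = 6) and 578.3 ± 57.98 (n = 8), a log2 difference of 0.62 (SE 0.09, 95% interval 0.44 to 0.81, adjusted p = 9.09e-06, background 16.3%). *Grm3* was the only member called in PB or LEV, and none was called in VEH, where *Grm5* came closest (-0.28, adjusted p = 0.0569).

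Some other measures, though not all, also differed between the series more in PB and LEV than in VEH animals by their means or medians. The share of counts from the ribosomal RNA gene *Rn18s* was 1.11% ± 0.103 and 1.08% ± 0.126 in the first and second series of VEH, 1.246% ± 0.289 and 0.714% ± 0.164 in PB and 1.08% ± 0.152 and 0.56% ± 0.211 in LEV (SD). Of the 13 tested transcripts of the astrocyte markers, 5 were higher in the second series in VEH, 8 in PB and 8 in LEV, with median log2 differences of 0.041, 0.30 and 0.45. The part of *Rn18s* in the result was not tested. With the mean log2 level of the 13 astrocyte transcripts as a covariate, the *Grm3* difference across the 3 treatments was 0.56 and was still called.

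The LEV change of *Grm3* differed between the code series, by 0.71 on the log2 scale (second minus first series, SE 0.13, 95% interval 0.45 to 0.98, adjusted p = 0.00169, interaction term). The other 5 receptors did not pass this test, and 0.842% of all tested transcripts did. Without VEH animal 1 the difference was 0.64 (adjusted p = 0.00725). With the excluded VEH animal 7 kept, in which *Grm3* stood at 932.5 normalized counts, it was 0.59 and no longer passed (adjusted p = 0.179). The corresponding difference for PB was 0.49 (SE 0.13, p = 0.000552, adjusted p = 0.129, background 0.0689%), and no receptor passed. Without VEH animal 1 the PB difference of *Grm3* was 0.41. With the level of the skeletal muscle markers as a covariate this value was 1.04 and was not called. *Grm5* had interaction values of 0.41 for LEV (p = 0.00277, adjusted p = 0.121) and 0.36 for PB (adjusted p = 0.268).

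Within animals 1 to 6, LEV-treated pups had less *Grm3* and *Grm5* and more *Grm4* than VEH pups. These 3 of 6 receptors were called, against 2.64% of the 13112 transcripts tested in this series. *Grm3* ranged from 300.5 to 431.7 after LEV (median 388.3) and from 500 to 719.7 after VEH (median 545.5), so that every LEV animal lay under every VEH animal. Its log2 fold change was -0.64 (SE 0.11, 95% interval -0.86 to -0.42, fold 0.643, adjusted p = 0.00222), and -0.57 (adjusted p = 0.00597) without VEH animal 1. It was called in all 18 fits that left out 1 animal of the series.

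*Grm5* ranged from 1335 to 1713 after LEV (median 1574) and from 1765 to 2036 after VEH (median 1886), again with no overlap. Groups without overlap were found for 2 of the 6 receptors and for 3.17% of all transcripts tested in this series. The log2 fold change of *Grm5* was -0.28 (SE 0.07, 95% interval -0.41 to -0.14, adjusted p = 0.0246), and -0.28 (adjusted p = 0.0484) without VEH animal 1. It was called in 13 of the 18 fits without 1 animal, and the highest adjusted p among them was 0.0653, without VEH animal 2. The other 4 fits without the call were those without VEH animal 5 and LEV animals 2, 3 and 6.

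*Grm4* ranged from 423.7 to 565.9 after LEV (median 494.7) and from 353.9 to 426.9 after VEH (median 408.2), so the lowest LEV animal fell inside the VEH range. Its log2 fold change was 0.33 (SE 0.09, 95% interval 0.15 to 0.51, adjusted p = 0.0497), and it lost the call without VEH animal 1 (0.35, adjusted p = 0.0704). It was called in 4 of the 18 fits without 1 animal, with log2 fold changes from 0.29 to 0.37 and adjusted p from 0.0121 to 0.112. *Grm2* had a log2 fold change of 0.31 (SE 0.11, adjusted p = 0.173), with 683.4 to 1125 normalized counts after LEV and 578.4 to 737 after VEH. *Grm7* (-0.01, 95% interval -0.16 to 0.14) and *Grm8* (0.05, 95% interval -0.29 to 0.38) had intervals on both sides of 0.

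PB-treated pups of animals 1 to 6 lay between the other groups for *Grm3*. Their values ran from 385.3 to 522.6 (median 456.9), and all 6 were under the VEH mean and above the LEV mean of the series. Against VEH the log2 fold change was -0.34 (SE 0.10, p = 0.00373, adjusted p = 0.155), and against LEV it was 0.29 (SE 0.11, p = 0.0126, adjusted p = 0.193). Without VEH animal 1 the value against VEH was -0.28 (adjusted p = 0.305). No receptor passed in either comparison, where 0.488% and 0.618% of all transcripts did. *Grm5* was at 1698 ± 157 normalized counts after PB (SD, n = 6) and 1901 ± 110.4 after VEH (n = 6), a log2 fold change of -0.16 (adjusted p = 0.314).

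In the second code series, no receptor was called after either drug. *Grm3* ranged from 470.7 to 663.7 after LEV (median 580.3), from 525.4 to 693.1 after PB (median 602.2) and from 488.6 to 672.4 after VEH (median 526.6), with all 3 groups overlapping. The log2 fold change was 0.07 for LEV (95% interval -0.09 to 0.23, adjusted p = 0.975) and 0.14 for PB (95% interval -0.02 to 0.30, adjusted p = 0.314). The interval for LEV excludes a fall of the size seen in animals 1 to 6. *Grm5* had log2 fold changes of 0.13 for LEV (adjusted p = 0.954) and 0.20 for PB (adjusted p = 0.259), and 7 of 8 animals of each drug group lay above the VEH mean, while both means were lower than VEH in the first series. Both drugs share this VEH mean, which includes VEH animal 9 at 1088, where the other VEH animals ran from 1484 to 2077. Without VEH animal 9 the *Grm5* change differed between the series by 0.34 for LEV and 0.29 for PB. The backgrounds were 0.0459% for LEV, 4.09% for PB and 1.01% for PB against LEV.

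**Figure D3:**
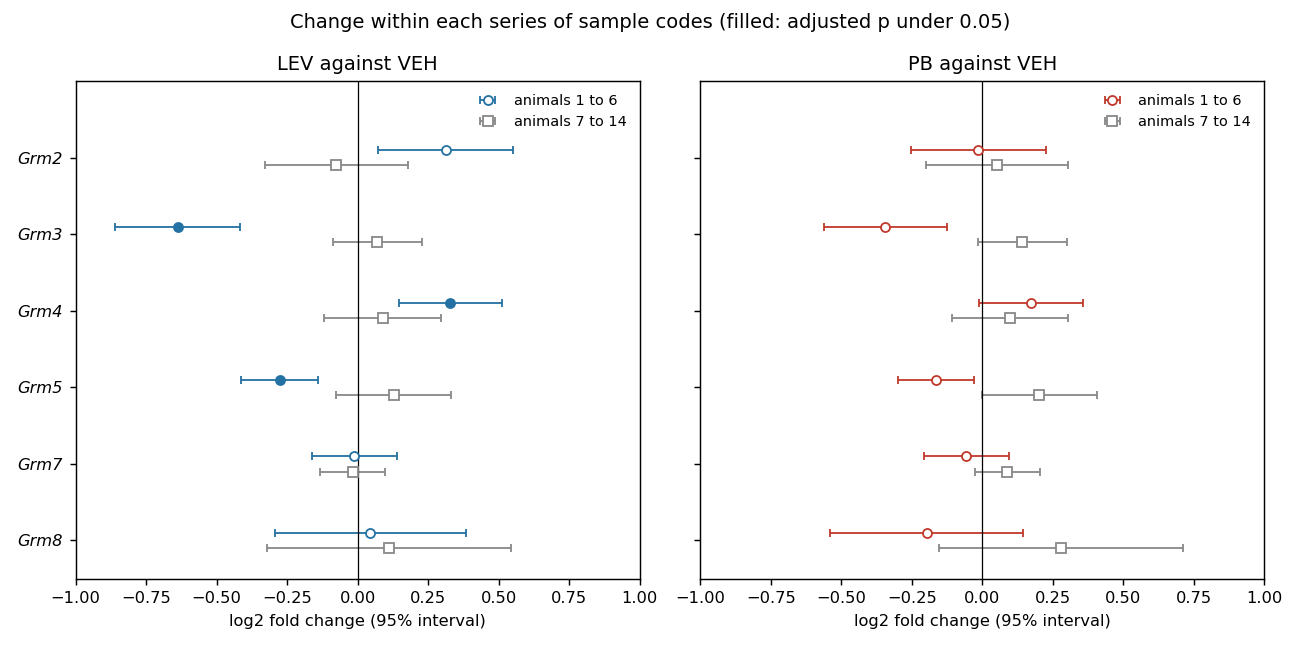
Log2 fold changes against VEH (horizontal axes) within each code series, LEV on the left and PB on the right, with 95% intervals. Filled symbols mark an adjusted p under 0.05, which was reached by *Grm3*, *Grm4* and *Grm5* for LEV in animals 1 to 6. For *Grm3* after LEV, the intervals of the first series (-0.86 to -0.42) and the second (-0.09 to 0.23) do not overlap.

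Markers of astrocytes moved with *Grm3* in part. The 6 astrocyte markers (*Aqp4*, *Aldh1l1*, *Gfap*, *Gja1*, *Slc1a3* and *Aldoc*) were all in the table. Their summed normalized counts lay between 33110 and 37310 in LEV animals 1 to 6 and between 38470 and 44920 in VEH animals 1 to 6, without overlap. In the second series the sums lay between 41410 and 47310 after LEV and between 43060 and 48910 after VEH. Within animals 1 to 6, 3 of the 13 tested transcripts of the list were lower after LEV and 2 higher. *Slc1a3* NM_019225 (-0.42) and *Aqp4* NM_012825 (-0.37, with the same values listed again under another transcript) were lower, whereas *Gfap* (-0.10, adjusted p = 0.701), *Aldoc* (-0.03, adjusted p = 0.822) and *Aldh1l1* (-0.04, adjusted p = 0.93) did not pass.

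With the mean log2 level of the 13 astrocyte transcripts as a covariate, the difference of the LEV change of *Grm3* between the series was 0.69 (adjusted p = 0.00472). This covariate weights each transcript alike and is not the summed count. After LEV in animals 1 to 6 the median log2 fold change of these transcripts was -0.039, with 2 higher and 3 lower. The part of the fall in the summed counts was therefore not tested. Oligodendrocyte precursor markers summed to 7398 ± 334.4 after LEV and 8182 ± 343.3 after VEH in animals 1 to 6 (SD, n = 6 each). Of the other lists, not all of which are given here, microglia markers were lower after LEV (1636 ± 108.1 and 1807 ± 127.7). Endothelium markers were higher, from 2603 to 2932 after LEV and from 2189 to 2494 after VEH, without overlap. The part of these lists in the result was not tested. Skeletal muscle markers averaged 419.1 after LEV, 421.5 after VEH and 169.7 after PB in these animals, and between 149.8 and 165.2 in the second series. With their level as a covariate, the interaction for *Grm3* was 0.76 (adjusted p = 0.000264).

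Around the receptors, the other genes of metabotropic glutamate signalling were read from a list of 64 symbols. The table held 59 of them, the missing symbols being *Elfn2* and alternative names of listed genes, with 73 transcripts, of which 72 were tested. After PB, 0 of the 72 were higher and 5 lower than in VEH, against a background of 1.93% higher and 3.46% lower. The median log2 fold change over the list was -0.02 and over all tested transcripts 0.0046. They included *Rgs14* (-0.26, adjusted p = 0.00272), a regulator of G protein signalling found in CA2 neurons, *Ncdn* (-0.23, adjusted p = 0.00361), which encodes the *Grm5*-binding protein neurochondrin, *Shank3* (-0.17, adjusted p = 0.019), a postsynaptic scaffold, and the main transcript of *Slc1a3* (NM_019225, -0.16, adjusted p = 0.0286), the glial glutamate transporter GLAST. None of the 5 reached the fold limit of the study. Within the code series, 1 of the 72 was higher and 3 lower after PB in animals 1 to 6 (background 0.488% in either direction). In animals 7 to 14, 2 were higher and 3 lower (background 4.09%). The PB change differed between the series for 2 of the 72, 1 in each direction (background 0.0689%). With both series and without VEH animal 1 the same 5 and *Adcy9* passed (background 4.66%).

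*Rgs14* had 581.9 ± 79.61 normalized counts in PB animals 1 to 6 and 546.2 ± 65.69 in PB animals of the second series, against 663.5 ± 63.39 and 683.9 ± 43.63 in VEH. *Ncdn* averaged 16640 ± 1445 and 15140 ± 1779 after PB, against 18680 ± 1462 and 18480 ± 1201 after VEH. For both genes the PB mean was lower in each code series. GABA neuron markers moved the same way, with a mean sum of 5961 ± 761.4 after PB and 7024 ± 646.6 after VEH. So did CA3 markers (7600 ± 546.5 and 8488 ± 788.3) and CA1 markers (9747 ± 662.4 and 10440 ± 620.5). Dentate granule markers were at 1845 ± 157.9 after PB and 1889 ± 263 after VEH. Thalamus markers (1476 ± 110.8 and 1393 ± 117.7) and neocortex markers (1937 ± 276.9 and 1781 ± 221.7) were higher after PB. The part of these marker lists in the values of *Rgs14* and *Ncdn* was not tested.

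After LEV, 0 of the 72 transcripts passed, and the 3 with the smallest p were *Slc1a3* NM_019225 (-0.18, adjusted p = 0.248), *Shank3* (-0.17, adjusted p = 0.248) and *Slc1a2* NM_001035233 (-0.32, adjusted p = 0.562), a transcript of the main glial glutamate transporter GLT-1. Between PB and LEV, 7 passed against the 4.45% of all transcripts. *Arrb1*, which encodes beta-arrestin 1 and serves receptor desensitization, was higher after PB (0.24, adjusted p = 0.0208). *Rgs14* (-0.34, adjusted p = 0.000163), *Ncdn* (-0.23, adjusted p = 0.00356), *Dlgap1* NM_001304287 (-0.27, adjusted p = 0.0229), *Grasp* (-0.26, adjusted p = 0.0334) and *Arc* (-0.27, adjusted p = 0.0485) were among those that were lower. The other *Dlgap1* transcript, NM_022946, was not lower, at 2514 ± 314.1 normalized counts after PB and 2448 ± 248.8 after LEV. How the estimated counts split between transcripts of 1 gene is uncertain. *Grasp* (tamalin) and *Dlgap1* encode scaffold proteins of the postsynaptic side, and *Arc* is an activity-dependent immediate early gene.

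In animals 1 to 6, of the 72 list transcripts, 3 were higher and 10 lower after LEV, against 0.511% and 2.13% of all transcripts. Of the 16 transcripts of the 10 uptake, packaging and turnover genes, 2 were higher and 5 lower, and these belonged to *Slc1a2*, *Slc1a3* and *Slc7a11*. *Slc1a2* NM_001302089 lay between 769.6 and 1347 normalized counts after LEV (median 958.7) and between 1543 and 2324 after VEH (median 1938), with no overlap and a log2 fold change of -0.90 (SE 0.13, adjusted p = 0.000521). *Slc7a11*, the cystine-glutamate exchanger, had 1136 ± 132.1 after LEV and 1644 ± 160.8 after VEH (SD, n = 6 each), a log2 fold change of -0.53 (adjusted p = 0.000427).

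The transcripts of *Slc1a3* parted within the gene. NM_019225 fell after LEV in animals 1 to 6 (-0.42, adjusted p = 5.52e-05), whereas NM_001289943 (1.14, adjusted p = 0.0002) and NM_001289941 (0.58, adjusted p = 0.0302) rose. The counts of these transcripts are estimates that share reads among them, and their split is uncertain. Summed over the gene, *Slc1a3* was lower (-0.32, adjusted p = 0.000158), as was *Slc1a2* (-0.86, adjusted p = 0.00012). In the Gq pathway of group I receptors, *Gnaq* (-0.22, adjusted p = 0.00604) and *Prkca* (-0.32, adjusted p = 0.0194) were lower, and so were *Arrb1* (-0.43, adjusted p = 0.000207) and *Shank3* (-0.30, adjusted p = 0.00554). The transcripts of *Dlgap1* went opposite ways (NM_001304287 0.36, NM_022946 -0.28). None of the 15 transcripts of Gi and Go coupling, adenylyl cyclase and potassium channel genes, through which *Grm3* and *Grm4* act, passed in this contrast.

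In the second series 0 of the 72 list transcripts were called after LEV, where 0.0459% of all transcripts were. The LEV change differed between the code series for 0.842% of all transcripts. Of the list, it did so for *Slc1a2* NM_001302089 (0.97, adjusted p = 0.00593), *Slc7a11* (0.61, adjusted p = 0.00595), *Arrb1* (0.45, adjusted p = 0.0142) and 2 transcripts of *Slc1a3* (NM_019225 0.44, NM_001289943 -1.61). These same transcripts passed without VEH animal 1.

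**Figure D4:**
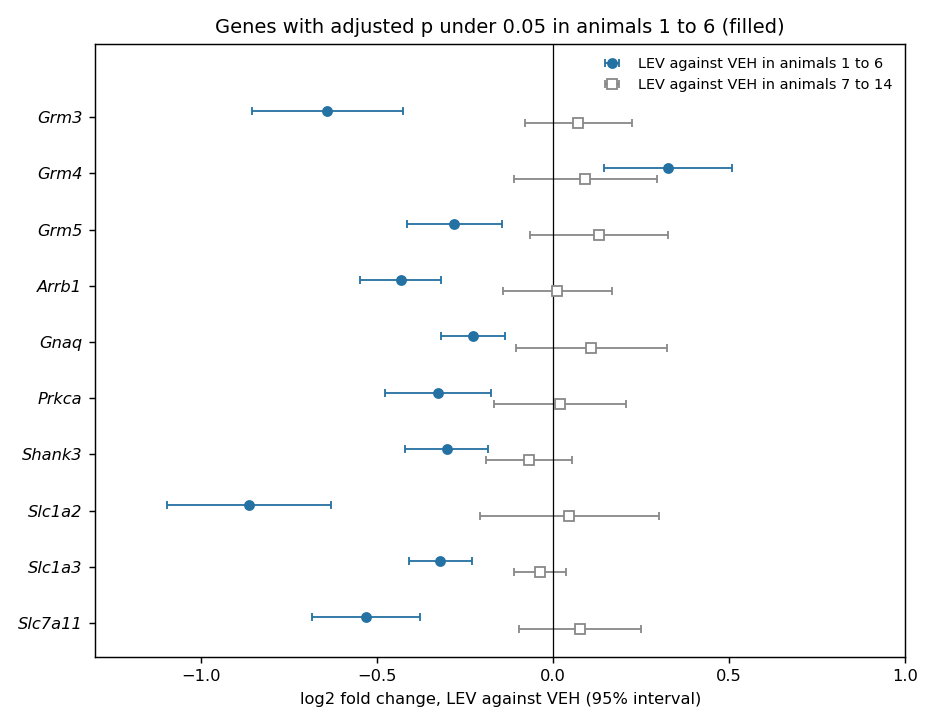
Log2 fold changes of LEV against VEH (horizontal axis, 95% intervals), with counts summed per gene, for the receptors and listed signalling genes that had an adjusted p under 0.05 in animals 1 to 6. These genes were picked for passing in that series (filled circles), and open squares give the second series, where none passed. *Slc1a2* has the largest fall (-0.86), followed by *Grm3* (-0.64) and *Slc7a11* (-0.53), and *Grm4* is the gene that rose.

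From animal to animal, the receptors covaried within and across their groups. With treatment and code series removed from the log2 CPM, 8 of the 15 pairs of receptors were correlated over the 41 animals by Pearson's r and 9 by Spearman's rho (two-sided permutation tests within the code series, 100000 resamples, Benjamini-Hochberg adjustment over 15 pairs). How often pairs of other transcripts pass the same test was not computed, so these counts do not set the receptors apart from other genes. *Grm2* and *Grm4*, both presynaptic Gi-coupled receptors, had r = 0.729 and rho = 0.724 (permutation p = 1e-05 for r, the smallest that the resamples can give, adjusted p = 7.5e-05, and adjusted p = 0.00015 for rho). Without the 2 animals farthest from the median of *Grm2* (PB 9 and LEV 5) r was 0.727, and within the series it was 0.706 (n = 18) and 0.744 (n = 23).

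*Grm3* and *Grm5* had r = 0.706 and rho = 0.805 (permutation p = 1e-05 for each, adjusted p = 7.5e-05 and 0.00015). Without LEV 2 and VEH 1, the 2 animals farthest from the median of *Grm3*, r was 0.723. It was 0.816 in animals 1 to 6 and 0.677 in the second series, and 0.593 when the mean of each treatment within each series was also removed. *Grm7* was correlated with *Grm5* (r = 0.511, rho = 0.597, adjusted permutation p = 0.0019 and 0.0006), *Grm2* (r = 0.477, rho = 0.485, adjusted permutation p = 0.00507 and 0.0037) and *Grm8* (r = 0.466, rho = 0.436, adjusted permutation p = 0.00491 and 0.00981). Their r was 0.538, 0.324 and 0.366 without the 2 farthest animals. *Grm3* and its group II partner *Grm2* did not pass (r = 0.0946, rho = 0.109, adjusted permutation p = 0.644 and 0.577), although r was 0.387 when the mean of each treatment within each series was also removed. *Grm4* and *Grm5* did not pass either (r = -0.233, rho = -0.0261, adjusted permutation p = 0.211 and 0.936). All 6 values of an animal come from 1 library, so differences in dissection and in the makeup of the tissue are shared by the pairs.

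**Figure D5:**
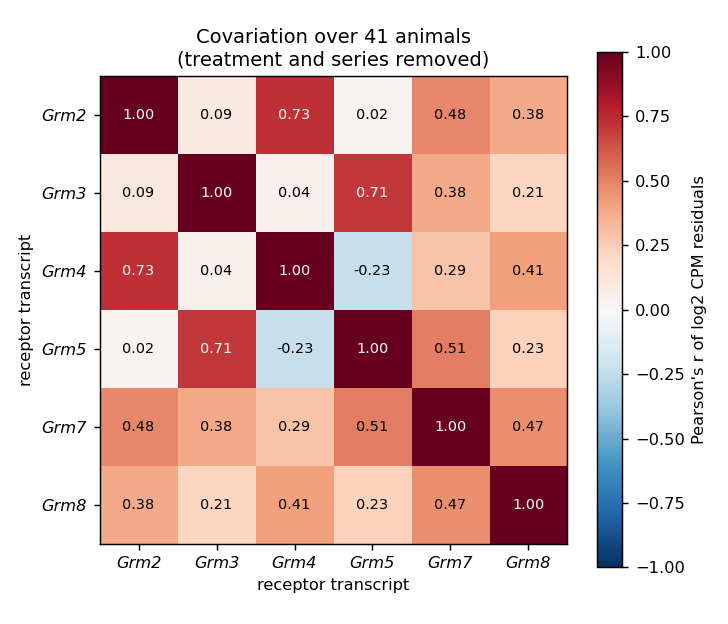
Pearson's r between the residual log2 CPM of each pair of receptor transcripts over 41 animals, after removal of treatment and code series. The colour scale runs from -1 (blue) to 1 (red), and the highest off-diagonal values are those of *Grm2* with *Grm4* (0.73) and *Grm3* with *Grm5* (0.71).

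Across all tested transcripts of other genes, those most like each receptor over the 41 animals, by r of the same residuals, were as follows, as a description only. *Grm2* was most like *Satb1* (0.924) and *Olfm2* (0.888), *Grm4* most like *Dact2* (0.855) and *Dok5* (0.795), and *Grm5* most like *Kif1b* (0.932) and *Xkr4* (0.914). *Grm3* was most like the transporter transcript *Slc1a2* NM_001302089 (0.823) and *Nr2c2* (0.819), and with the mean of each treatment within each series removed these values were 0.698 and 0.689. *Grm7* was most like *Clasp2* (0.842) and *Mapre2* (0.798), genes of microtubule binding proteins, and *Grm8* most like *Nxph3* (0.817) and *Oxtr* (0.781). For *Grm8* and *Oxtr* the rank correlation was 0.489, and VEH animal 13 had the lowest *Grm8* of all, at 19 counts.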

How the data were processed

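Total RNA of 42 hippocampi was extracted with Trizol, and libraries were made with a NEBNext Ultra kit. The authors filtered the reads, aligned them to rn6 with STAR 2.7.3a and deposited estimated counts per RefSeq transcript from the Partek E/M algorithm, without normalization. Of these expected counts 13.7% are not whole, and they were rounded here. Whether counting used strand is not given in the sources used here. The authors' own table of comparisons (p-values, adjusted p-values, ratios, fold changes and group means) was not used.

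In R 4.3.3 with edgeR 4.0.16 and limma 3.58.1, counts were normalized by TMM (effective library sizes 9588079 to 13786159), filterByExpr by treatment kept 13062 of 15516 transcripts, and VEH, PB and LEV were compared with glmQLFit and glmQLFTest in 1 model with the form of the sample code as an additive term. Interaction terms and fits within each code series followed, and differences between the series within each treatment were added later. Adjustment was over all tested transcripts, with a threshold of 0.05. A fold limit of 1.25 served as a second rule. Log2 CPM used a prior count of 2. The steps were tested on simulated data. Intervals are 95%. Each library was 1 animal, and 1 animal per litter entered each group, so p-values measure the spread between these animals. The paper also states that treatments were balanced within litters, so littermates stand in different groups. The labels do not give the litter, and it was not part of any model. At this depth 5 members rest on over 300 counts per animal.

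The members, the gene lists and the tests were chosen with earlier results of these data known. All members were named, with the listed signalling transcripts that passed in a comparison of 2 groups (or else the 3 with the smallest p) and the 2 transcripts most like each member. Some listed genes are counted but not reported here by name. Signalling transcripts named for animals 1 to 6 or for the interaction were chosen after their values were seen. Alternatives were DESeq2 1.42.0, its size factors, other filters, other batch terms, each series alone, every VEH animal (14), fits of only the groups compared, robust dispersion, sums per gene, the choroid plexus, skeletal muscle or astrocyte marker level as a covariate, and each animal left out in turn. The astrocyte covariate, the animals left out within animals 1 to 6 alone and the fits without VEH animal 1 were chosen after seeing the data. An order of the receptors by level was not computed, since transcript lengths were not used here.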

Additional observations from a re-analysis of the deposited data

Results flagged for a closer look

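The LEV change of *Grm3* differed between the code series by 0.71 on the log2 scale (0.7144 before rounding, adjusted p = 0.00169, edgeR interaction term). All 6 LEV animals of the first series lay under the VEH mean, and 6 of 8 in the second lay above it.

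Of the 36 sets of 1 receptor, 1 treatment and 1 code series, 4 held an animal far from the others by Dixon's criterion, which chance alone meets in about 1 set in 20. All 4 were VEH animals. *Grm2* was at 578.4 normalized counts in VEH 4, against 687.1 to 737 in the other animals of its set. *Grm4* was at 577 in VEH 9 (others 340.7 to 395.7), and this animal also had the lowest *Grm5* (1088). *Grm7* was at 1128 in VEH 10 (others 895.6 to 950.4). *Grm8* was at 20.38 in VEH 13 (others 70.56 to 107.1), on 19 counts.

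The excluded VEH animal 7, which no comparison above includes unless stated, lay above all 13 analysed VEH animals for every receptor. Its normalized counts were 1304 for *Grm2*, 932.5 for *Grm3*, 773.6 for *Grm4*, 2569 for *Grm5*, 1156 for *Grm7* and 128.6 for *Grm8*.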

How the results depend on the processing

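Of the counts of receptors called, that for PB against VEH and that for PB against LEV stayed at 0 under all 18 alternatives, with planned and added settings together. That for LEV against VEH was 3 in animals 1 to 6 alone and 0 under the other 17. The 1 call of a drug change differing between the code series became 2 calls with DESeq2, which added *Grm3* after PB (0.49, adjusted p = 0.0499) to *Grm3* after LEV, and 0 calls with all 14 VEH animals (*Grm3* after LEV 0.59, adjusted p = 0.179). Over 11 alternatives the LEV value of *Grm3* lay between 0.59 and 0.76 and was called in 10, and its PB value between 0.37 and 1.04, the highest with the muscle covariate. Its difference between the series reached 0.56 with the astrocyte covariate. The receptor that differed between the code series (1) became 0 with the fold limit and 0 with the skeletal muscle level as a covariate (*Grm3* 0.31, adjusted p = 0.0816). Of the listed signalling transcripts, the 5 for PB against VEH became 0 with the fold limit and 3 with the muscle covariate. The 7 for PB against LEV became 1 with the fold limit, 3 with all 14 VEH animals, 1 in animals 1 to 6 and 1 in animals 7 to 14. The 0 for LEV against VEH became 13 in animals 1 to 6 and 1 with a batch-by-treatment term. The causes of these changes were not tested.

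Animal numbers did not pair the animals throughout: of 40 same-numbered pairs, 10 had deviations correlated above 0.1 (median -4.45e-05, range -0.332 to 0.329), and 5 matched best with their own number. Animals numbered 8 (0.2545 to 0.3292) and 11 (0.1397 to 0.2798) were above 0.1 in every pair. What chance alone would give was not computed, and pairing of some numbers was not tested. With a block for the animal number (replicate block), listed transcripts called were 3 for PB against VEH and 5 for PB against LEV, and no receptor was called in any of the 3 comparisons.

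Directions turned in values that did not pass, and the cause was not tested. In animals 1 to 6 alone, PB against VEH was -0.013 for *Grm2*, -0.16 for *Grm5*, -0.057 for *Grm7* and -0.20 for *Grm8*, and PB against LEV was -0.045 for *Grm7*. In the second series alone, LEV against VEH was -0.075 for *Grm2*, 0.070 for *Grm3* and 0.13 for *Grm5*, PB against VEH was 0.14 for *Grm3*, and PB against LEV was 0.13 for *Grm2*, 0.0086 for *Grm4* and 0.17 for *Grm8*. With all 14 VEH animals, PB against VEH was -0.054 for *Grm2* and -0.021 for *Grm5*, the second against the first series 0.041 for *Grm2* and 0.017 for *Grm5*, the series difference of the PB change -0.067 for *Grm2*, and that of the LEV change -0.036 for *Grm7* and -0.055 for *Grm8*. With the muscle covariate, the second against the first series was 0.097 for *Grm2* and 0.036 for *Grm5*, and PB against LEV 0.14 for *Grm8*. With the astrocyte covariate, the second against the first series was 0.34 for *Grm2* and 0.36 for *Grm5*, the series difference of the PB change -0.048 for *Grm2*, and that of the LEV change -0.015 for *Grm7*. The last was also -0.0026 with DESeq2, -0.0025 with its size factors, -0.0068 without a filter and -0.0066 with counts summed per gene.

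Over 41 fits with 1 animal left out, the receptors called numbered 0 to 1 for PB against VEH (1 without VEH 9, *Grm4*), 0 for the other drug comparisons and 1 to 2 for the series (2 without VEH 9 or PB 5, which added *Grm4*). Calls of a drug change differing between the series, counted per receptor and drug, numbered 1 to 3 (3 without VEH 10, with *Grm3* after either drug and *Grm5* after LEV, and 2 without LEV 8). The listed transcripts called numbered 3 to 7 for PB against VEH (3 without PB 7) and 5 to 8 for PB against LEV. The LEV interaction of *Grm3* lay between 0.64 and 0.77 and was called in 41 of 41 fits, and that of *Grm5* between 0.34 and 0.49, called without VEH 10 and LEV 8. The ranges of values that changed sign were, for PB against VEH, -0.031 to 0.080 (*Grm2*), -0.015 to 0.059 (*Grm5*) and -0.020 to 0.12 (*Grm8*). For LEV against VEH they were -0.038 to 0.0018 (*Grm7*) and -0.015 to 0.12 (*Grm8*), and for PB against LEV -0.055 to 0.043 (*Grm8*). For the second against the first series they were -0.040 to 0.037 (*Grm2*), -0.033 to 0.013 (*Grm5*) and -0.017 to 0.073 (*Grm8*). For the series difference of the PB change they were -0.029 to 0.15 (*Grm2*) and -0.14 to 0.039 (*Grm4*), and for that of the LEV change -0.028 to 0.044 (*Grm7*) and -0.089 to 0.18 (*Grm8*). At 19 to 122 counts per animal, depth limits *Grm8* most.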
